A study of Mus musculus with 2239 samples.

Results

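Izumo1r, Nrp1, Gpr83 and Lrrc32 encode 4 surface proteins of regulatory T cells (Tregs), and were taken by symbol from the 23725 gene rows of a single-cell count table. All 4 were present. The table held 2239 mouse cells of 1 library, each cell labelled as a sample of its own, and the 2055 cells with at least 500 unique molecular identifiers (UMIs, tags that mark single captured mRNA molecules) were kept. Every cell carried the same labels: male mouse, strain B6, age 7 months, tissue spleen, a Foxp3 reporter gene, and a sort for live cells with surface T cell receptor beta, CD4 and the green reporter. No cell had a treatment or a second genotype, and the number of mice was not given. The sample type label names colon and ctrl beside spleen, so it is not settled whether colon cells were loaded too. With 1 library there was no replicate and no test. Intervals, all at 95%, cover counting error alone, and cells were pooled as a source of counts, not treated as replicates.

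Tregs are CD4 T cells that restrain immune responses under the transcription factor Foxp3, and the 4 genes are widely used to recognise them. Izumo1r encodes a membrane protein of the folate receptor family, also called Juno. Nrp1 encodes neuropilin, a co-receptor for semaphorins and vascular endothelial growth factor. Gpr83 encodes a G protein-coupled receptor, and Lrrc32 encodes GARP, which holds latent TGF-beta on the cell surface. Ikzf2 encodes Helios, a transcription factor of most thymus-derived Tregs, while S100a4 and S100a6 are calcium-binding proteins abundant in effector T cells and in myeloid cells.

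Gpr83 and Izumo1r are neighbours on mouse chromosome 9 of GRCm38, the build also called mm10. In the GENCODE M21 annotation Gpr83 spans chr9:14860210-14870789 on the plus strand and Izumo1r spans chr9:14885814-14903949 on the minus strand, so that their 3′ ends face each other across 15024 bases. Nrp1 lies at chr8:128358604-128503363 and Lrrc32 at chr7:98489283-98502181, both on the plus strand. The start regions of the neighbours are shown because their transcripts were distributed differently over the cells, as described below. Both are read from RefSeq (GRCm38.p6) in the direction of transcription, with CG dinucleotides in capitals; the first is the 250 bases before the GENCODE start of Gpr83 (chr9:14859960-14860209, plus strand) and the second is the 68 bases before the outermost GENCODE exon of Izumo1r (chr9:14903950-14904017, minus strand). The RefSeq gene models reach further out, to position 14859880 for Gpr83 and 14903951 for Izumo1r, so the first stretch lies inside the RefSeq gene and the second overlaps its end.
Gpr83: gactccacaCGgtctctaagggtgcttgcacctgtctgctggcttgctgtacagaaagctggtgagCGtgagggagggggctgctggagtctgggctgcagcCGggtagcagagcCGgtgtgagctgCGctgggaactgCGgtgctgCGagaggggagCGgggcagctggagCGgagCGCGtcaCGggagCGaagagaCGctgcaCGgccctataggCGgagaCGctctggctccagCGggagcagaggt
Izumo1r: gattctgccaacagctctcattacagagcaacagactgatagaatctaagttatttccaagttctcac
The Gpr83 stretch of 250 bases held 18 CG dinucleotides and the Izumo1r stretch of 68 bases held 0. The Gpr83 stretch runs up to the start listed for its promoter, while the Izumo1r stretch ends 182 bases before its own. These counts are thus not comparable, and no link between sequence and distribution over cells was tested. In the 300-base RefSeq windows that run from 250 bases before to 50 bases after each listed start, Gpr83 had 24 CG dinucleotides, Nrp1 had 14 and Izumo1r had 3, against a median of 7 over 32851 promoters. Of all promoters, 80.0% had fewer than Gpr83, 63.7% fewer than Nrp1 and 23.3% fewer than Izumo1r. The letters TGTTTAC (forkhead), TTCNNNGAA (STAT), TGTGGTT (RUNX), CCGGAAG (ETS), TGANTCA (AP-1) and GTCTAGAC (SMAD) were searched on both strands, overlaps allowed, and none was in any of the 3 windows. Of the same 32851 promoters, the share holding each was 3.65%, 8.298%, 5.269%, 8.858%, 7.808% and 0.2131%, in that order. Lrrc32 was not among the windows searched.

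The sampling was shallow. Kept cells held 2156277 UMIs, with a median of 974 per cell (500 to 4329) and a median of 551 genes. Foxp3, the gene behind the sort, had a UMI in 595 cells (29.0%) and 92.5% of cells had at least 1 UMI of 10 pan-T genes. Cells with at least 2 UMIs of 8 B cell markers numbered 85, their median total was 897 UMIs, and their median pan-T count was 0 against 4 in the other cells. These B cell-marker cells served as the background. Their pan-T level was 712 CPM against 3915 in the other cells, and whether that came from free RNA or from doublets was not tested. A further group of 54 cells had at least 2 UMIs of 8 myeloid markers, and 132 cells met either criterion.

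Izumo1r was the most abundant of the 4 genes and Lrrc32 the least. Izumo1r had 1288 UMIs, a pooled level of 597 CPM (UMIs of the gene per 1000000 UMIs) with an interval of 565 to 631. It had 0 UMIs in 1269 cells, 1 in 486, 2 in 174 and at least 3 in 126, with a maximum of 7. Nrp1 followed with 673 UMIs and 312 CPM (289 to 337); 298 cells had 1 UMI, 103 had 2, 48 had at least 3, and the maximum was 7. Both levels stood clear of each other and of the other members' intervals. Gpr83 had 281 UMIs and 130.3 CPM (116 to 146), with 181 cells at 1 UMI, 30 at 2 and 12 at 3 to 5. Lrrc32 had 253 UMIs and 117 CPM (103 to 133), with 180 cells at 1 UMI, 30 at 2 and 4 at 3 or 4. The intervals of Gpr83 and Lrrc32 overlapped, so their order was not separated by the counts. For scale, Foxp3 had 371 CPM (346 to 398), between Izumo1r and Nrp1. The library counts transcript ends, so these levels are not divided by gene length.

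A UMI of Izumo1r was seen in 786 cells, 38.2% of those kept (36.1% to 40.4%). The share was 21.8% for Nrp1 (449 cells), 10.9% for Gpr83 (223 cells) and 10.4% for Lrrc32 (214 cells). When every cell was thinned to 500 UMIs these shares became 22.6%, 12.2%, 5.94% and 4.72%. In B cell-marker cells, which should lack these transcripts, the shares were 5.88% for Izumo1r (5 of 85 cells, 1.94% to 13.2%), 2.35% for Nrp1 (2 cells, 0.286% to 8.24%), 4.71% for Gpr83 (4 cells, 1.30% to 11.6%) and 1.18% for Lrrc32 (1 cell, 0.0298% to 6.38%). Izumo1r, Nrp1 and Lrrc32 lay above the upper limit of that background. The Gpr83 share of 10.9% lay inside the background's interval, although its pooled level of 130.3 CPM compares with 44.5 CPM in the B cell-marker cells.

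Among close relatives of the members, Folr1 and Folr2, the other folate receptor genes listed, had 0 UMIs in the kept cells. By the floor of 3 counts, cells with a UMI could be 0.146% of them, and the exact upper limit was 0.179%. Nrp2, the second neuropilin, had 8 UMIs in 8 cells (3.71 CPM). Nrros, the relative of Lrrc32 that anchors latent TGF-beta on myeloid cells and microglia, had 143 UMIs (66.3 CPM), and its share of 8.24% in B cell-marker cells exceeded its 6.52% over all kept cells.

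The levels moved differently with depth. Over 4 groups of equal size from the shallowest to the deepest cells, Nrp1 went from 403 to 359, 291 and 262 CPM. Its interval in the shallowest group (338 to 475) did not meet that in the deepest (228 to 299.8). Izumo1r was at 602, 609, 526 and 636 CPM, without a steady order. Gpr83 was at 130.3, 167, 142 and 102 CPM, and the interval of its second group (131.7 to 209.2) lay above that of the deepest (81.4 to 126.6). Lrrc32 was at 89.8, 123, 129 and 118 CPM, and its 4 intervals overlapped.

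Of the 2055 kept cells, 1189 (57.9%) had a UMI of at least 1 of the 4 genes, and 8 of 85 B cell-marker cells did (9.41%). Among the 1460 cells without a Foxp3 UMI the count was 810 (55.5%). Exactly 1 gene was seen in 764 cells, 2 genes in 367, 3 genes in 58 and all 4 in 0 cells. To set the number expected if genes were detected independently, cells were split into 10 bins of equal size by total UMIs and the detected shares were multiplied within each bin. Expected were 807 cells with none against 866 observed, 877 with 1, 321 with 2, 47.6 with 3 and 2.52 with 4. Cells with none included most of the other cell types: 107 of those 866 cells carried B cell or myeloid markers, against 17 of 764, 5 of 367 and 3 of 58 cells with 1, 2 and 3 genes. Foxp3 was detected in 24.9%, 30.9%, 33.0% and 37.9% of cells with none, 1, 2 and 3 genes, whose median depths were 915, 989, 1035 and 1216 UMIs.

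Izumo1r and Nrp1 were seen together in 223 cells where 178 were expected, a ratio of 1.25 (1.10 to 1.43). This was the only pair of the 6 whose interval lay above 1, and without the B cell-marker and myeloid-marker cells the ratio was 1.20 (1.05 to 1.37). Nrp1 was detected in 28.4% of Izumo1r-detected cells and in 17.8% of the others. Gpr83 and Lrrc32 shared 33 cells against 25.3 expected, a ratio of 1.31 with a wide interval (0.899 to 1.83). When cells were thinned to 500 UMIs that ratio was 0.868. Izumo1r and Lrrc32 shared 99 cells against 87.8 expected (1.13, 0.917 to 1.37). Izumo1r with Gpr83 (93 cells, ratio 1.02), Nrp1 with Lrrc32 (48 cells, 1.01) and Nrp1 with Gpr83 (45 cells, 0.899) lay near 1. For the last pair the interval ran from 0.656 to 1.20, so a moderate excess or deficit was not detectable at this depth.

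**Figure D1:**
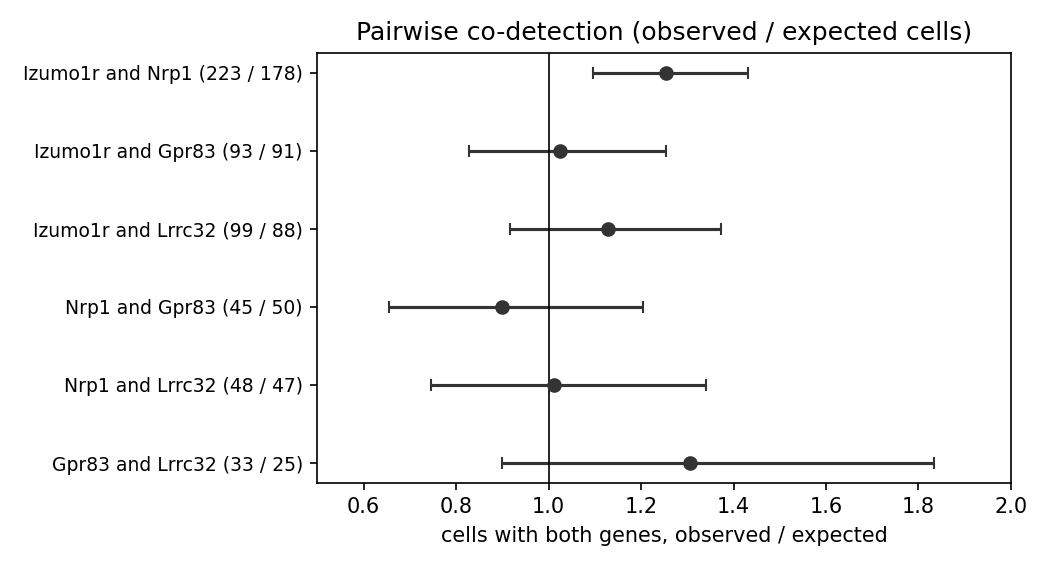
Observed over expected number of cells with a UMI of both genes for the 6 pairs (x axis), with 95% Poisson intervals and the observed and expected numbers in brackets. The Izumo1r and Nrp1 pair, at 1.25, has its whole interval right of 1; the other 5 intervals cross 1.

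Cells with at least 2 Ikzf2 UMIs (326 cells) were compared with cells that had none (1251 cells), a comparison of Helios-rich Tregs with cells in which Helios was not detected. Izumo1r was at 471 CPM (433 to 510) in cells with 0 Ikzf2 UMIs, 747 (673 to 825) in the 478 cells with 1, and 803 (718 to 896) in cells with at least 2. The difference lay between 0 and 1 UMI, with a ratio of 1.59 (1.39 to 1.81), whereas the step from 1 to at least 2 was 1.08 (0.924 to 1.25). Nrp1 stood at 270.1 CPM (242 to 301), 339 (290.4 to 393) and 409 (349 to 477), with steps of 1.25 (1.04 to 1.51) and 1.21 (0.969 to 1.504). Gpr83 was at 113 CPM (95.1 to 133), 188 (152 to 230) and 110.5 (80.3 to 148). Its middle class was thus the highest, 1.66 times the class without Ikzf2 (1.27 to 2.17), and the class with at least 2 was 0.587 times the middle class (0.401 to 0.847). The fall was not steady. The 196 cells with exactly 2 Ikzf2 UMIs were at 80.5 CPM (47.7 to 127). The 130 cells with at least 3 were at 149 (97.2 to 218), which overlapped the middle class. For at least 1 Ikzf2 UMI against 0, the Gpr83 ratio was 1.36 (1.07 to 1.73). Lrrc32 was at 93.8 CPM (77.6 to 112), 161 (128 to 199) and 136 (102 to 177), with the last classes overlapping. All these levels include B cell-marker and myeloid-marker cells. Without such cells Izumo1r was at 515 (474 to 559), 749 (675 to 830) and 813 (726 to 909) CPM. Nrp1 was then at 294 (264 to 328), 341 (292 to 397) and 415 (353 to 484), and its intervals at 0 and 1 UMI overlapped. Gpr83 was at 123, 188 and 102 CPM and Lrrc32 at 103, 164 and 128.

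Between at least 2 and 0 Ikzf2 UMIs, the ratio of pooled CPM was 1.71 for Izumo1r (1.49 to 1.96), 1.51 for Nrp1 (1.25 to 1.83), 1.45 for Lrrc32 (1.03 to 2.01) and 0.977 for Gpr83 (0.680 to 1.38). At the 1.5-fold used to count genes, 2 of 4 members were higher, where 7.22% of the 4486 genes with at least 50 UMIs over both classes were. None was lower, and 6.6% of all those genes were. Both classes differed in other cells: 9 of 326 cells with Helios UMIs and 114 of 1251 without carried B cell or myeloid markers. Leaving such cells out gave 1.58 for Izumo1r (1.37 to 1.81), 1.41 for Nrp1 (1.16 to 1.71), 1.24 for Lrrc32 (0.870 to 1.75) and 0.825 for Gpr83 (0.563 to 1.18). Only Izumo1r then passed 1.5-fold, and 7.79% of all genes measured did. Without ribosomal protein UMIs in the total, Nrp1 stood at 1.47. The median depth was 1071 against 940 UMIs, and detection in cells thinned to 500 UMIs was 29.4% against 19.3% for Izumo1r, 18.4% against 10.1% for Nrp1, 6.75% against 3.60% for Lrrc32 and 4.29% against 5.36% for Gpr83. In the 117 Helios-rich cells that also had a Foxp3 UMI, set against Foxp3-detected cells without Ikzf2, the Izumo1r ratio was 1.33 (1.04 to 1.69), and Nrp1 was also at 1.33 (0.969 to 1.81). Lrrc32 was there at 1.05 (0.562 to 1.89) and Gpr83 at 0.819 (0.456 to 1.41). With counts thinned to 500 UMIs per cell the Izumo1r ratio was 1.48 (1.19 to 1.84). When the Ikzf2 classes were also set on the thinned counts, it was 1.14 (0.780 to 1.62), so that its excess over the class without Ikzf2 was not detectable. On those classes Nrp1 was at 2.56 (1.76 to 3.63), Lrrc32 at 2.30 (1.10 to 4.39) and Gpr83 at 0.976 (0.382 to 2.09). The Helios-rich class then held 112 cells, with 34 UMIs of Izumo1r, 38 of Nrp1, 11 of Lrrc32 and 7 of Gpr83. Thinning was a single random draw, and the intervals do not cover the spread between draws.

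**Figure D2:**
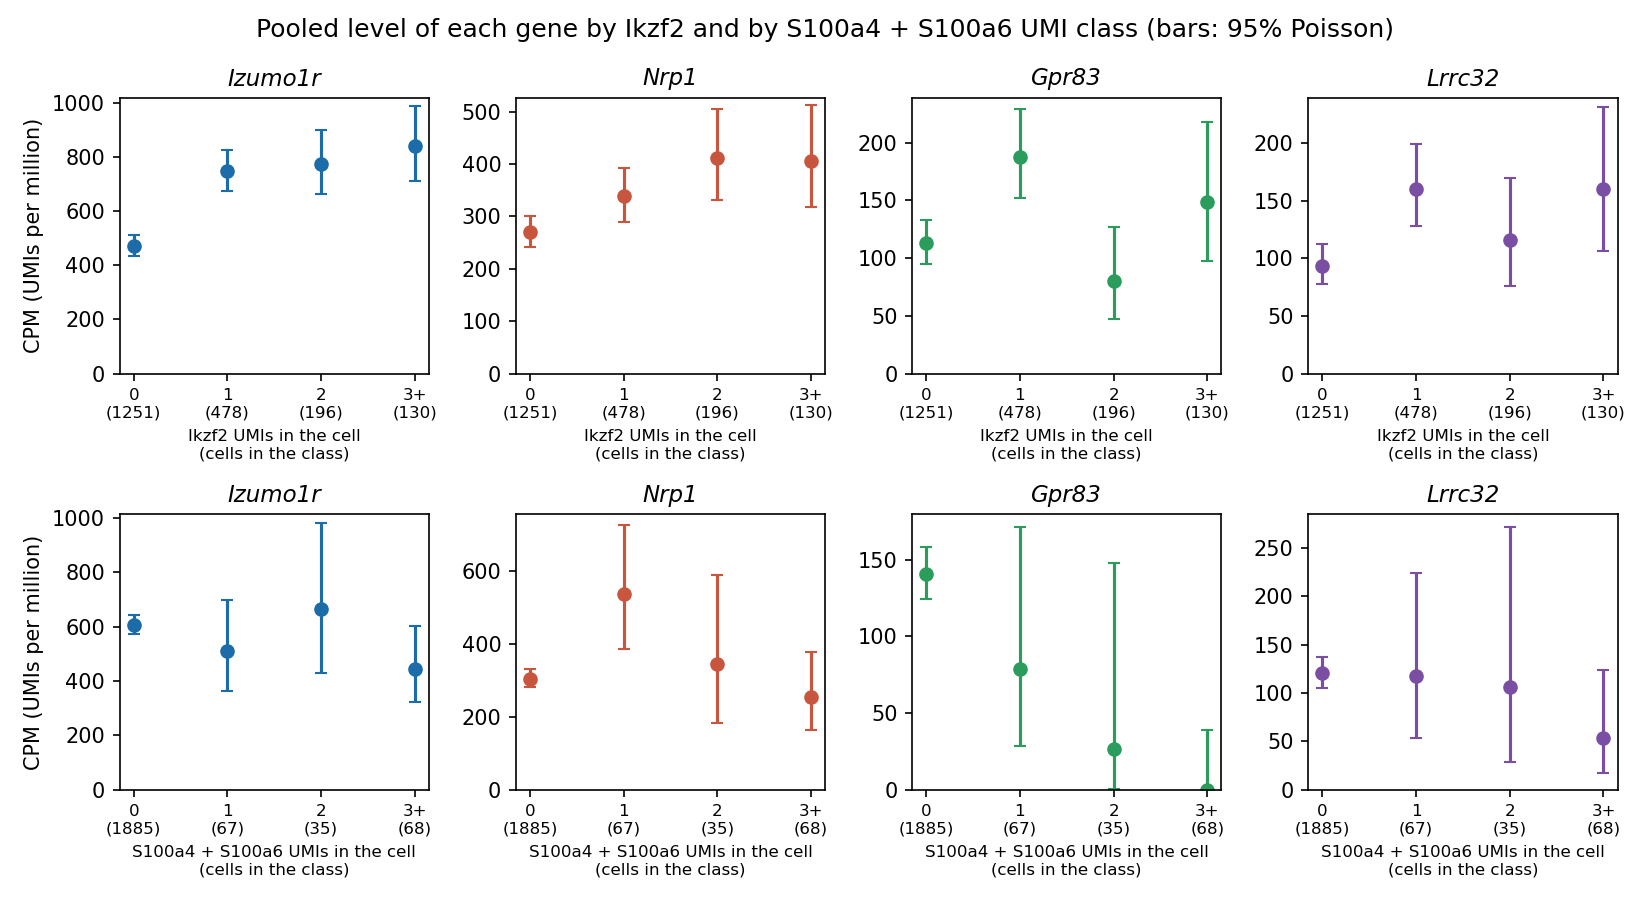
Pooled level of each gene in CPM (y axes, linear from 0) by the number of Ikzf2 UMIs (upper row) or of S100a4 and S100a6 UMIs together (lower row) in the cell; points are pooled levels, bars 95% Poisson intervals, and the cells of each class are in brackets. Izumo1r and Nrp1 are lowest in cells without Ikzf2, Gpr83 shows no steady order over Ikzf2, and Gpr83 is at 0 in the 68 cells with at least 3 S100 UMIs.

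Other Treg genes moved with Ikzf2 as well. Of 10 measured Treg identity genes, 6 were at least 1.5-fold higher and 0 lower, led by Cd83 (2.68, 1.93 to 3.72), the TNF receptor family member Tnfrsf4 (2.46, 1.96 to 3.08) and the inhibitory receptor Ctla4 (1.96, 1.46 to 2.63). Without the marker cells of other types the count was 4 of 10. Cd83 was then at 4.09 (2.82 to 5.98), Tnfrsf4 at 2.19 (1.74 to 2.75) and Ctla4 at 1.80 (1.33 to 2.42). Cd83 is not confined to Tregs here, as it was detected in 23.5% of B cell-marker cells against 7.35% of all kept cells. Of 14 measured effector Treg genes 11 were higher and 0 lower, among them the receptor Klrg1 (7.83, 4.58 to 13.9), the costimulator Icos (3.63, 2.73 to 4.82) and the transcription factor Batf (2.59, 1.77 to 3.79). Of 15 resting T cell genes 4 were lower and 1 higher, with Igfbp4 at 0.340 (0.185 to 0.581). Of the lists built around the members' own functions, 0 of 10 measured genes of the TGF-beta and GARP list, 0 of 3 of the neuropilin list and 0 of 4 of the folate list passed 1.5-fold. With 7.22% of all genes higher and 6.6% lower, lists this short may hold none without differing from other genes, and 1 TGF-beta gene was lower without ribosomal protein UMIs. Of 10 G protein signaling genes 1 was lower, Rgs2 at 0.535 (0.280 to 0.949), a regulator of G protein signaling that fell under the minimum of 50 UMIs without the marker cells, where 0 of 9 passed. The median log2 ratio over all measured genes was 0.04.

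Cells with at least 2 UMIs of S100a4 and S100a6 together (103 cells) were then compared with cells that had none (1885 cells). Gpr83 was almost absent from the first class. It had 1 UMI in 1 of 103 cells, 7.58 CPM (0.192 to 42.2), against 274 UMIs in 218 cells and 141 CPM (124 to 158). At the level of the class without S100 UMIs, 18.6 Gpr83 UMIs would have been counted. The 68 cells with at least 3 S100 UMIs had 0 Gpr83 UMIs, and the 67 cells with exactly 1 were between, at 78.5 CPM (28.8 to 171). Lrrc32 had 9 UMIs in 7 cells, 68.2 CPM (31.2 to 130), against 121 (106 to 137). Izumo1r was at 508 CPM (394 to 645) against 607 (573 to 642), and Nrp1 at 281 (198 to 387) against 305 (281 to 331); for both the intervals of the classes overlapped. Nrp1 was highest in cells with exactly 1 S100 UMI, 537 CPM (385 to 728), from 41 UMIs in 67 cells. Of these UMIs, 30 were in the 40 cells without Ikzf2 (659 CPM, 445 to 941). The 6 cells with at least 2 Ikzf2 UMIs had 2 (308 CPM, 37.3 to 1114).

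The ratio was 0.0539 for Gpr83 (0.00136 to 0.303), 0.566 for Lrrc32 (0.255 to 1.09), 0.837 for Izumo1r (0.644 to 1.07) and 0.918 for Nrp1 (0.640 to 1.28). At 1.5-fold 2 of 4 members were lower, where 17.4% of the 5164 measured genes were, and none was higher, where 23.2% of all were. Of the 4 intervals, only that of Gpr83 lay wholly past 1.5-fold. Without ribosomal protein UMIs, which were 24.8% of the total in the S100 class and 36.4% in the other, log2 ratios shifted by -0.24 and the genes past 1.5-fold changed from 1196 higher and 900 lower to 671 higher and 1373 lower. The same 2 members were the lower ones on that scale, with Gpr83 at 0.0456 and Lrrc32 at 0.478.

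The S100 class also held other cells. Cells with B cell or myeloid markers were 19 of 103 against 107 of 1885. The myeloid genes Lyz2, S100a8 and S100a9 had 140, 168 and 200 UMIs in 12, 7 and 7 cells of the class. All 6 measured myeloid genes were higher and 4 of 6 B cell genes were lower. With marker cells of either type left out, 84 cells remained, and their pan-T level was 4903 CPM against 3910.0 in 1778 cells. Their myeloid-list level was still higher, 246 against 91.2 CPM, as was their B cell-list level, 66.3 against 24.0. The myeloid gene Cst3 was still at 2.76 (1.73 to 4.22). Gpr83 then had 0 UMIs against 265. At a floor of 3 UMIs over the class its ratio was 0.196, and the exact upper limit was 0.243. Izumo1r came to 625 CPM against 633 (ratio 0.986, 0.758 to 1.26), Nrp1 to 341 against 320 (1.07, 0.739 to 1.49) and Lrrc32 to 85.2 against 125 (0.684, 0.309 to 1.32). Gpr83 was then the only member past 1.5-fold lower, where 17.3% of all measured genes were, and none was higher, where 24.3% were. Foxp3 was detected in 27.2% of the 103 cells and 29.0% of the 1885.

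**Figure D3:**
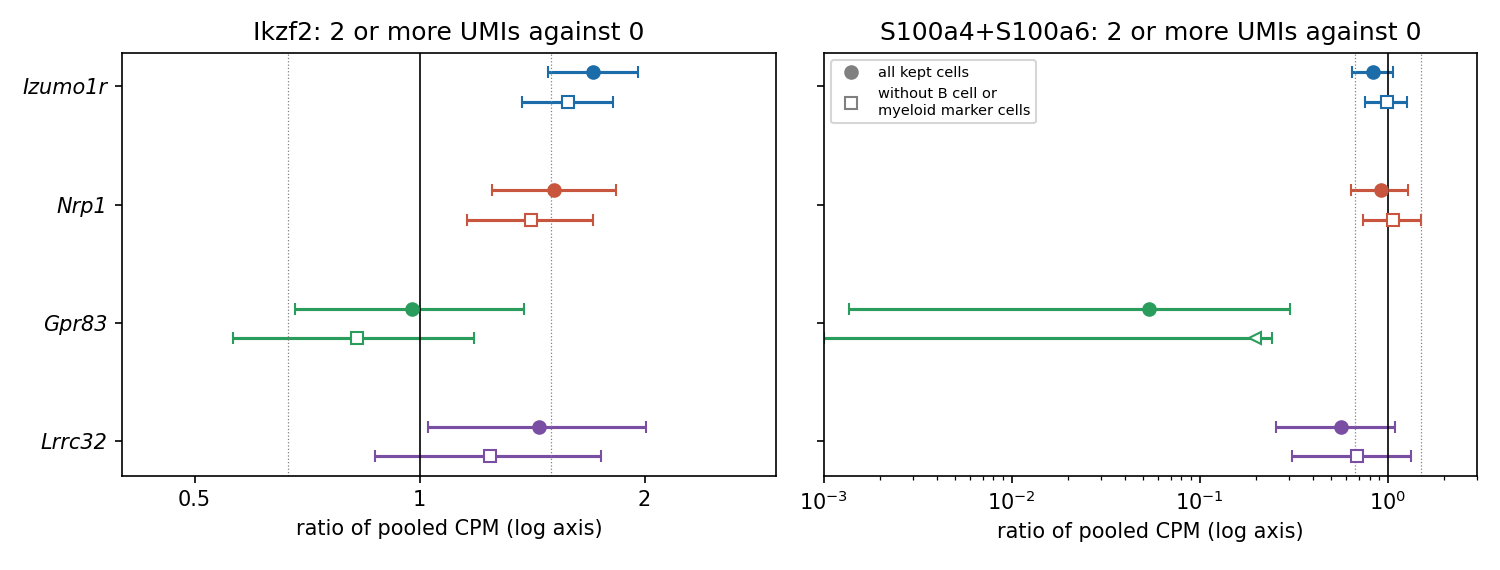
Ratio of pooled CPM (log axes of different range) between cells with at least 2 and with 0 UMIs of Ikzf2 (left) or of S100a4 and S100a6 (right), with 95% intervals; filled points use all kept cells, open squares leave out B cell-marker and myeloid-marker cells, the open triangle is an upper bound from 0 UMIs, and dotted lines mark 1.5-fold either way. Gpr83 lies near 1 on the left and far below the other 3 genes on the right.

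Effector and resting genes separated the S100 classes widely. The lists were chosen with earlier results of these data known. The effector list also holds S100a10 and S100a11, so its counts describe the classes and test nothing. Of 14 measured effector Treg genes 13 were higher and 0 lower, with Ccr2 at 493 against 5.65 CPM, Klrg1 at 447 against 13.3 and Fgl2, a secreted suppressive mediator, at 364 against 19.5. Without the marker cells of other types all 14 were higher. Of 15 resting T cell genes 12 were lower and 1 higher, in all kept cells and without the marker cells. The transcriptional repressor Bach2 had 1 UMI against 175, the growth factor-binding protein gene Igfbp4 had 2 against 197, and the chromatin organiser Satb1 was at 75.8 against 398 CPM. Gpr83, with 1 UMI against 274, was lower together with these resting genes. The TGF-beta and GARP list had 1 of 10 genes higher, the protease gene Furin at 3.10 (1.56 to 5.69), and 2 lower, close to the 23.2% and 17.4% of all genes. When the marker cells were left out 2 were higher and 2 lower, and Furin, with 7 UMIs in the class, was at 2.20 (0.847 to 4.85). The folate list had 4 of 6 lower, but no more than 3 UMIs in the S100 class for each of the 3 with the largest change, Gart, Mthfd1l and Mthfd1. Of 11 G protein signaling genes 4 were higher, led by Rgs2 at 8.58 (5.52 to 13.1), and 1 was lower, Rgs10 at 0.572 (0.341 to 0.902). Outside the marker cells 3 were higher and 2 lower. Rgs2 there had 4 UMIs against 49 in place of 36 against 62, for a ratio of 1.41 (0.371 to 3.86). Without ribosomal protein UMIs 2 were higher and 2 lower.

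Helios-rich and S100-rich cells overlapped, so the classes were crossed. At least 2 Ikzf2 UMIs were found in 34 of the 103 S100-rich cells (33.0%) and in 286 of the 1885 without S100 UMIs (15.2%). Within Helios-rich cells, Izumo1r was at 784 CPM in the 34 S100-rich cells and 798 in the 286 others (ratio 0.983, 0.687 to 1.37). Nrp1 was at 412 against 411 (1.002, 0.601 to 1.59), and Lrrc32 at 118 against 135 (0.871, 0.304 to 2.05). Gpr83 had 0 UMIs against 43, for an exact upper limit of 0.598 on its ratio. Within cells without Ikzf2, Izumo1r was lower in the 51 S100-rich cells, at 206 CPM against 490 in the 1160 others (0.420, 0.216 to 0.739). There Nrp1 was at 171 against 259.7 (0.660, 0.313 to 1.23), Lrrc32 had 2 UMIs against 112 (0.350, 0.0419 to 1.29) and Gpr83 had 1 against 139 (0.141, 0.00354 to 0.798). Of those 51 cells, however, 17 carried B cell or myeloid markers, against 91 of 1160, 1 of 34 and 8 of 286 in the other crossed classes. Without the marker cells, Izumo1r in cells without Ikzf2 was at 333 against 527 CPM (0.632, 0.325 to 1.11), Nrp1 at 249.7 against 280.4 (0.891, 0.403 to 1.71), and Gpr83 had 0 UMIs in 34 cells against 138 in 1069, with an exact upper limit of 0.791. Among S100-rich cells outside the marker cells, Izumo1r was still higher where Ikzf2 was rich, 804 against 333 CPM (2.41, 1.24 to 5.07). Among cells without S100 UMIs it was at 807 against 527 (1.53, 1.32 to 1.78). For Nrp1 these ratios were 1.73 (0.761 to 4.30) and 1.48 (1.20 to 1.81). The intervals of both ratios overlapped for either gene, and Gpr83 had 0 UMIs in the 33 and in the 34 S100-rich cells.

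**Figure D4:**
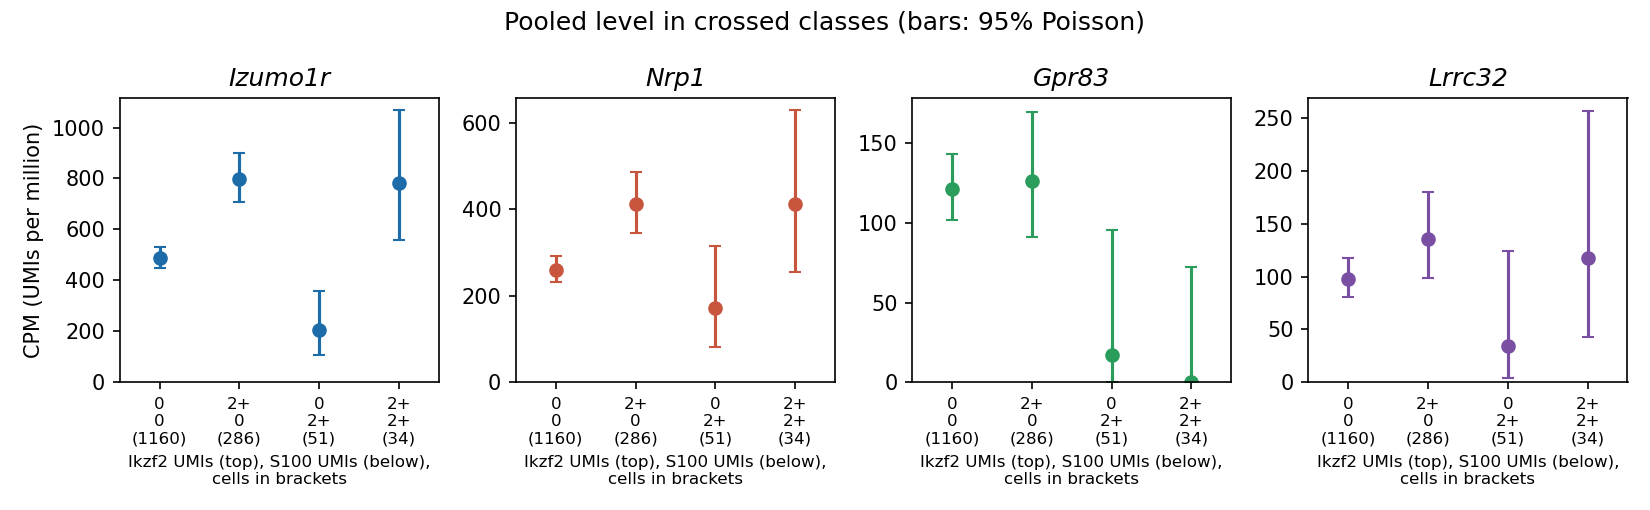
Pooled level in CPM (y axes, linear from 0) in 4 crossed classes of Ikzf2 UMIs (top tick label) and S100a4 and S100a6 UMIs (lower tick label), 0 or at least 2, with 95% Poisson intervals and cells in brackets. Izumo1r and Nrp1 are higher with Ikzf2 in both S100 classes, while Gpr83 is lowest in both S100-rich classes; all kept cells are used, and 17 of the 51 cells in the third position carried markers of other cell types.

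Over Foxp3 UMIs, Gpr83 was the member with the largest ratio. Between the 160 cells with at least 2 Foxp3 UMIs and the 1460 with none, Gpr83 was at 224 against 123 CPM (ratio 1.82, 1.27 to 2.56), and cells with exactly 1 Foxp3 UMI were at 117. The ratio was 1.18 for Izumo1r (0.972 to 1.43), 1.24 for Nrp1 (0.946 to 1.60) and 0.662 for Lrrc32 (0.354 to 1.14), all with intervals that cross 1. Past 1.5-fold, Gpr83 was thus higher, where 7.79% of the 4595 genes measured were, and Lrrc32 was lower, where 13.8% were. Cells with B cell or myeloid markers were 3 of 160 against 120 of 1460. Without them the ratio was 1.77 for Gpr83 (1.23 to 2.49), 1.09 for Izumo1r (0.892 to 1.32), 1.16 for Nrp1 (0.881 to 1.505) and 0.632 for Lrrc32 (0.338 to 1.09).

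Cells with a UMI of a member were finally compared with cells that had none, to describe the company each gene kept. These comparisons use the same lists and the same cells as above, so they are no separate support for the S100 result. Cells with Gpr83 (223 against 1832) had less of the effector genes: 10 of 15 measured were at least 1.5-fold lower and 0 higher, where 13.7% and 5.85% of the 5317 genes measured were. Icos was at 59.1 against 140 CPM (0.423, 0.233 to 0.710), the integrin Itgb1 at 63.0 against 138 (0.458, 0.258 to 0.757) and the scaffold gene Ahnak at 74.9 against 183 (0.409, 0.243 to 0.649). Fgl2 had 1 UMI against 100 and Ccr2 had 0 against 78, in classes that held 253815 and 1902462 UMIs in total. Both counts include the B cell-marker and myeloid-marker cells. Of 15 resting genes 3 were higher and 0 lower: Bcl2, which guards against cell death (1.78, 1.48 to 2.11), Klf3 (1.76, 1.07 to 2.79) and Igfbp4 (1.64, 1.11 to 2.36). All 6 measured myeloid and all 6 B cell genes were lower. Without the marker cells the effector count was again 10 of 15, where 12.7% of all genes were lower, and Icos stood at 0.404 (0.218 to 0.691).

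Cells with Nrp1 (449 against 1606) went the other way on several of those genes. Of 15 effector genes 4 were higher and 0 lower, where 4.57% and 6.77% of all genes were. The counts were 3 higher and 1 lower without ribosomal protein UMIs, and 5 higher and 0 lower without the marker cells. Itgb1 was at 253 against 91.3 CPM (2.77, 2.17 to 3.53), Icos at 205 against 108 (1.91, 1.48 to 2.44) and the transcription factor Maf at 114 against 75.0 (1.52, 1.09 to 2.09). Of the resting genes 3 of 15 were lower, namely Ly6c2, Ly6c1 and Igfbp4, with ratios of 0.525, 0.530 and 0.533. In cells with Izumo1r (786 against 1269) 4 of 15 effector genes were higher and 3 lower, where 2.92% and 5.4% of all genes were. Icos was at 187 against 90.0 CPM (2.07, 1.62 to 2.66), and Ccr2, Id2 and Fgl2 were lower. The lower Fgl2, 0.509 (0.315 to 0.8005), was at 1.02 (0.585 to 1.76) without the marker cells.

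Cells with Lrrc32 (214 against 1841) had more of several Treg identity genes. Of 12 measured 5 were higher and 0 lower, where 6.88% and 12.4% of all genes were. Without the marker cells 4 of the 12 were higher and 0 lower. This was not particular to Lrrc32. In Izumo1r cells 4 of the 12 were higher and 0 lower, where 2.92% and 5.4% of all genes were. In Nrp1 cells 3 were higher and 0 lower (4.57% and 6.77% of all genes). In Gpr83 cells 2 were higher and 2 lower (5.85% and 13.7%). Without the marker cells the higher counts were 2, 3 and 2, in that order. In Lrrc32 cells Socs2, a cytokine-signaling inhibitor, was at 265 against 107 CPM (2.48, 1.85 to 3.30). Il2ra, the alpha chain of the IL-2 receptor, was at 1052 against 496 (2.12, 1.84 to 2.44). Il2ra was also higher in Gpr83 cells (1.75, 1.51 to 2.02), as was Socs2 (1.88, 1.37 to 2.55). Of 11 measured genes of TGF-beta handling around GARP, 0 passed 1.5-fold, and their median log2 ratio was -0.23 against -0.0027 over all genes. The largest changes were in Smad7, an inhibitor of TGF-beta signaling, at 0.673 (0.262 to 1.45), the integrin chain Itgav at 0.677 (0.177 to 1.86) and the repressor of SMAD proteins Skil at 1.45 (0.935 to 2.19), all with intervals that cross 1.

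**Figure D5:**
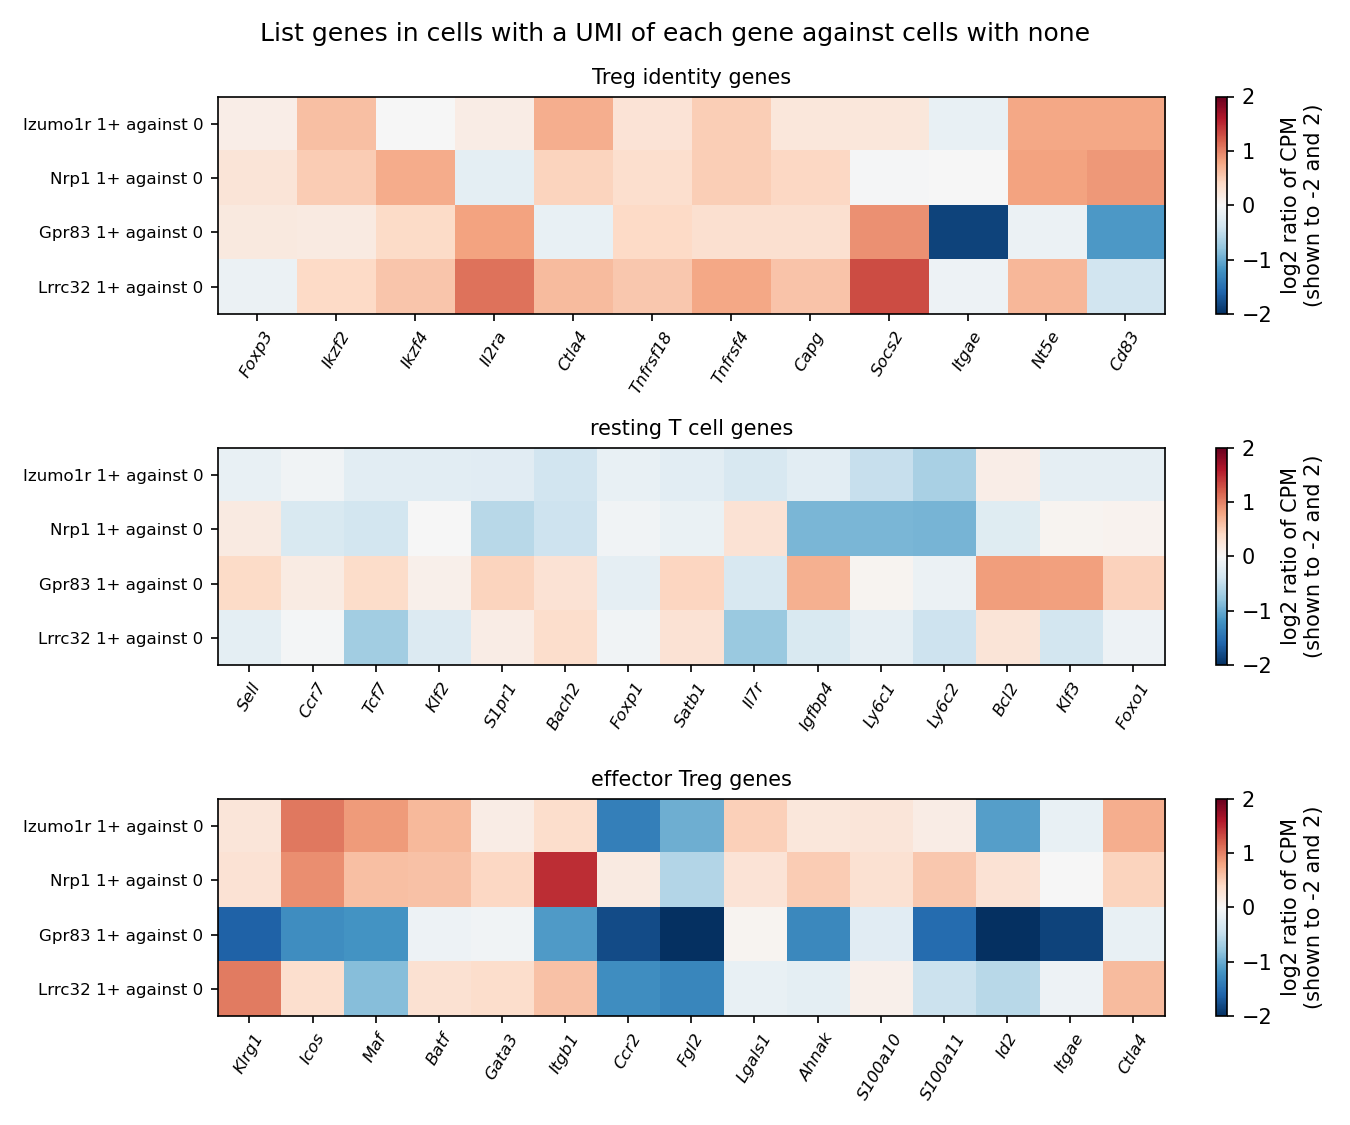
Log2 ratio of pooled CPM (colour, shown to -2 and 2) of each measured Treg identity, resting T cell and effector Treg gene (columns) between cells with at least 1 UMI and with none of each of the 4 genes (rows), all kept cells. In the Gpr83 row 10 of 15 effector genes are at least 1.5-fold lower (blue); the Lrrc32 row is darkest red at Socs2 and Il2ra, and the Nrp1 row at Itgb1.

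Over single cells, no gene tracked a member closely. Correlation was measured as Pearson's r of Pearson residuals over 2055 cells of the same library, among 3131 genes with at least 100 UMIs, and is given as a description; in counts this sparse such weak values are no finding. The nearest genes were Il2rb (0.142), AW112010 (0.139) and Ephx1 (0.138) for Izumo1r, and Itgb1 (0.192), Penk (0.136) and Izumo1r (0.115) for Nrp1. For Gpr83 they were Il2ra (0.142), Bcl2 (0.128) and Tmem64 (0.127), and for Lrrc32 Il2ra (0.194), Cish (0.160) and Socs2 (0.141). Without the marker cells of other types, Itgb1 stayed first for Nrp1 (0.196 over 1923 cells) and Il2ra first for both Gpr83 (0.130) and Lrrc32 (0.176), while AW112010 came first for Izumo1r (0.142).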

How the data were processed

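Cells of Foxp3 reporter mice, with the tissue label spleen, were sorted and encapsulated with inDrops, per the labels' protocols. By the same protocols, this droplet method reverse transcribes poly(A) RNA and amplifies it by in vitro transcription. The submitters' processing notes name TopHat2, SAMtools and the mm10 build; for the settings, annotation and counter, nothing was given in the sources used here. What the authors deposited is a table of raw UMI counts, genes by cells. The label's UMI number exceeded the table total in all 2239 cells, and the reason was not tested.

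The minimum of 500 UMIs set aside 184 cells. Doublets were not called; 13 cells above 3000 UMIs were left out in an alternative. Levels are UMIs pooled over cells per 1000000. Intervals at 95% are exact Poisson for levels and co-detection, Clopper-Pearson for shares and exact conditional for ratios. They cover counting error only. A gene needed 50 UMIs in the 2 classes together to be measured and a 1.5-fold ratio to be counted; a count of 0 was set to 3 UMIs over the class in ratios. The ratio step was tested on simulated counts. Named genes were the members, their paralogs, the class genes, up to 3 measured genes of largest log2 ratio per list and contrast, and the 3 highest correlations per member; further genes named in comparisons of cells with a member were chosen after their values were seen. The 18 lists held 178 entries, of which 2 did not match a row. The 4 genes and all lists were chosen with earlier results of these data known. Contrasts by Foxp3 and by each member, and list counts, crossed classes, Foxp3 ratios and correlations without marker cells, were added after the data were seen. Alternatives varied the UMI minimum, marker cells, ribosomal UMIs, class thresholds, thinning, Foxp3 detection and depth bins. Python 3.11.15, numpy 2.4.6, pandas 2.3.3, scipy 1.17.1 and matplotlib 3.10.9 were used.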

Additional observations from a re-analysis of the deposited data

How the results depend on the processing

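Of 136 recomputed values for the 4 genes, 120 stayed within the counting interval of the reported value and 16 moved outside it. Called directions reversed in 0. Ratios near 1, such as that of Nrp1 over S100a4 and S100a6 (0.777 to 1.29), lay on both sides of 1. Staying within did not mean that a 1.5-fold call was kept. Nrp1 over Ikzf2, called higher at 1.51, was below 1.5 in alternatives that stayed within. Among them were 1.41 without marker cells, 1.37 at 1 or more Ikzf2 UMIs against 0 and 1.33 in Foxp3-detected cells. Others stayed above 1.5. Lrrc32 over Ikzf2, not called at 1.45, passed 1.5 in several alternatives. Among them were 1.60 (1.24 to 2.06) at 1 or more Ikzf2 UMIs against 0 and 1.71 (1.09 to 2.60) at 3 or more. It was further from 1.5 in others, at 1.24 without marker cells and 1.05 in Foxp3-detected cells. Few counts also made intervals wide, as for Lrrc32 over Ikzf2 (1.03 to 2.01). Without ribosomal protein UMIs the levels of Izumo1r, Nrp1, Gpr83 and Lrrc32 were 925, 483, 202 and 182 CPM, as a smaller denominator makes them, and Nrp1 was at 269.9 CPM in cells with at least 1000 UMIs. The Izumo1r ratio over Ikzf2 was 1.33 in Foxp3-detected cells, 1.48 after thinning and 1.14 with classes set after thinning. That last setting gave 2.56 for Nrp1 and 2.30 for Lrrc32, from 38 and 11 UMIs in a Helios-rich class of 112 cells. Over S100a4 and S100a6, classes set after thinning gave 0.491 for Izumo1r, and Foxp3-detected cells gave 1.29 for Nrp1. Gpr83 had 0 UMIs in the S100-rich class in Foxp3-detected cells, after thinning and with classes set after thinning, so its ratio there was 0.628, 0.413 and 0.784 at the floor of 3 UMIs, with exact upper limits of 0.788, 0.515 and 0.977. Co-detection of Gpr83 and Lrrc32 was 0.868 after thinning. Apart from the smaller denominator and the floor, the cause was not tested. With a median of 974 UMIs per cell, co-detection and the S100-rich class of 103 cells are limited by counting. No paired analysis was possible because there was 1 library.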
